A study of Homo sapiens with 18 samples.

Results

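The cytosolic ribosomal protein genes encode the proteins of the small (RPS) and large (RPL) subunits of the ribosome that works in the cytoplasm. They were taken by symbol: RPL or RPS with a number and at most 1 letter A or X, the stalk genes RPLP0, RPLP1 and RPLP2, and RPSA. The rule used no measured value and found 77 of the 26249 genes in the deposited tables, 46 of the large and 31 of the small subunit, and all 77 were among the 12204 genes tested. Expression was measured in 18 libraries from the human lines XG1 and AMO1, both labelled multiple myeloma, a cancer of antibody-secreting plasma cells, in a study of CDK7 inhibition whose title calls such cells resistant. Each line was treated for 6 hours with the vehicle DMSO, with 100 nM or with 1000 nM YKL-5-124, a covalent inhibitor of CDK7, the kinase of the general transcription factor TFIIH that phosphorylates RNA polymerase II. Each of these 6 groups had 3 libraries. Cells of either line were kept in 12-well plates, and the labels name no genetic change, no batch and no separate cultures for the replicates, so a p-value below reflects the spread among the libraries of a group only, and that spread may be technical.

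A ribosome needs its proteins in near equal numbers, and their mRNAs are among the most abundant and most stable of a growing cell. Most of these mRNAs begin with a C followed by a run of pyrimidines, the terminal oligopyrimidine (TOP) sequence, through which mTOR and the RNA-binding protein LARP1 control their translation and stability. Plasma cells and erythroid precursors both depend on a high output of protein, and loss of 1 copy of several ribosomal protein genes causes Diamond-Blackfan anaemia, a failure of red cell production.

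The values are FPKM, the authors' measure of fragments per length of the gene model and per sequencing output, and differences are given as log2 of FPKM + 1. The libraries were made by a 3′ method (QuantSeq), in which a transcript gives reads near its end whatever its length, so that division by length can shift the level of one gene against another. The files hold no counts, so the depth behind each value is unknown. Ribosomal protein genes have many near-identical processed pseudogenes and some have introns that hold small nucleolar RNAs. The sources used here do not give how reads that match several copies were assigned or whether strand was used, so the level of any single member is uncertain to that extent.

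A check of the labels came first. Of 10 plasma cell marker genes, 9 reached 10 FPKM in each AMO1 library, and the 10 summed to 4808 to 7249 FPKM. In the libraries labelled XG1 the same 10 genes summed to 44.4 to 75.9 FPKM, and 5 of them were under 1 FPKM in all 9 libraries. Of 12 erythroid marker genes, 9 reached 10 FPKM in each XG1 library, where the 12 summed to 3596 to 4302 FPKM, against 24.6 to 68.5 FPKM in AMO1. The markers therefore go against a plasma cell identity for these 9 libraries, and "XG1" below means the libraries that carry this label. Pearson correlations of replicates across genes were 0.955 to 0.974 and no 2 libraries were identical.

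Symbols of 62 of the 77 members matched a promoter of the RefSeq table (build GRCh38.p14). Among those that did not match were RPL23A, RPL30, RPL5 and RPS2. At 42 of the 62 (67.7%) the annotated start was a C, followed without a break by C or T to a run of at least 5 bases, read on the transcript's strand only. The same was found at 1429 of all 35116 promoters in the table (4.07%), at 14 of 18 promoters (77.8%) of other genes known for TOP mRNAs, and at 6 of 85 promoters (7.06%) matched to the mitochondrial ribosomal proteins. The windows below show 15 bases before and 15 bases from the annotated start, 5′ to 3′, with the unbroken run of C and T that covers the start in capitals. They are shown because they belong to members that the results turn on: the first 7 carry the run and the last 4, among them the 3 members that differed most between the lines, do not.
RPS14, chr5:150449725-150449754, strand -: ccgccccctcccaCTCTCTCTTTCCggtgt
RPL26, chr17:8383179-8383208, strand -: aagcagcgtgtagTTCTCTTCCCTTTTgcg
RPL37A, chr2:216498829-216498858, strand +: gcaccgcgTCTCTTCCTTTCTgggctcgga
RPL41, chr12:56116618-56116647, strand +: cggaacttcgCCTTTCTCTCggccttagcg
RPS6, chr9:19380222-19380251, strand -: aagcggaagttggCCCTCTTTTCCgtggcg
RPLP0, chr12:120201097-120201126, strand -: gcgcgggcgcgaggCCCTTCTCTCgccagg
RPS19, chr19:41860240-41860269, strand +: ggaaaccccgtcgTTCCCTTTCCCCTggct
RPS4X, chrX:72277234-72277263, strand -: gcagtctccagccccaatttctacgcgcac
RPS28, chr19:8321481-8321510, strand +: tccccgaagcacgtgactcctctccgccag
RPS27A, chr2:55231888-55231917, strand +: taaggagtgacacacaagacccagactctt
RPS29, chr14:49598696-49598725, strand -: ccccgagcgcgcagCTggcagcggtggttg
A window without the run says only that these letters do not stand at that annotated start, and no start site was measured here.

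All 77 members were expressed at 10 FPKM or more in each of the 18 libraries, 71 at 100 FPKM or more and 45 at 1000 FPKM or more. Together they made up 30.6% to 38.6% of the summed FPKM of an XG1 library and 20.1% to 31.8% of that of an AMO1 library. The same 3 members had the highest means in both lines, in another order. In XG1 RPS29, a zinc-finger protein of the small subunit, led at 67399 ± 2162 FPKM (mean ± SD, n = 3, DMSO), ahead of RPL37A at 14195 ± 311 and RPS28 at 14094 ± 1128, whose libraries overlapped. In AMO1 RPS28 led at 54222 ± 13181 FPKM, ahead of RPL37A at 38574 ± 10995 and RPS29 at 34949.6 ± 8121, and the libraries of neighbours in this order overlapped. Among the lowest in XG1 were RPL21 at 35.6 ± 6.29 and RPL10, a late-joining protein of the large subunit, at 62.4 ± 6.05 FPKM. In AMO1 RPL10 at 67.7 ± 10.9 and RPS26 at 99.6 ± 3.92 FPKM were among the lowest. The order of members was alike in the lines, with a Spearman rho of 0.932 between the mean levels in DMSO over the 77 genes. Longer members had lower FPKM, with a rho between median transcript length and mean level of -0.43 in XG1 and -0.36 in AMO1. These correlations are across genes, which are not independent replicates, and all points of a line come from the same 3 libraries.

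**Figure D1:**
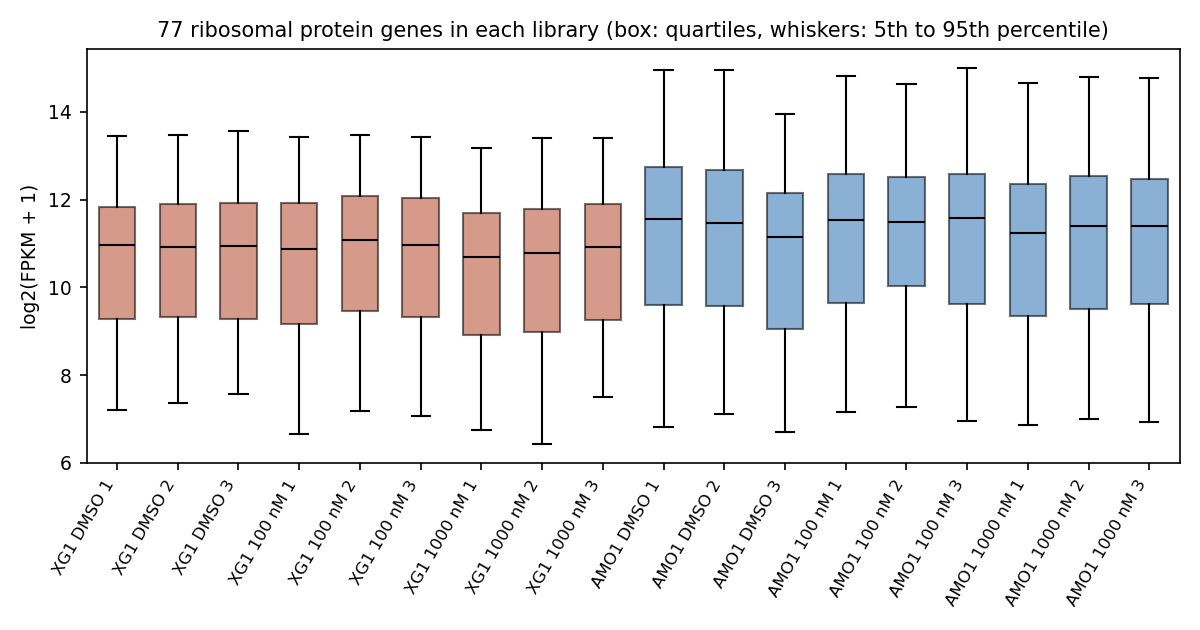
Box plots of log2(FPKM + 1) of the 77 ribosomal protein genes in each of the 18 libraries, in red for the libraries labelled XG1 and in blue for AMO1, with the median as a line, quartiles as the box and the 5th and 95th percentiles as whiskers. The group means of the library medians are 10.80 to 10.98 in XG1 and 11.35 to 11.54 in AMO1, and AMO1 DMSO replicate 3 has the lowest median of the AMO1 libraries.

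The median member stood at a log2 level of 10.94 in XG1 with DMSO, 10.98 with 100 nM and 10.80 with 1000 nM (means of 3 libraries). In AMO1 the values were 11.40, 11.54 and 11.35. Replicates of most groups held the family more tightly than other genes: the median within-group SD of a member was 0.10 in XG1 with DMSO, against 0.17 for all genes tested. The reverse held in AMO1 with DMSO, where that SD was 0.34 for members and 0.24 for all genes. There, replicate 3 was the lowest library for 67 of 77 members, with a median deviation of -0.55 from the mean of the other 2 replicates on the log2 scale, against -0.27 for all genes tested. AMO1 1000 nM replicate 1 was the lowest of its group for 65 of 77 members. In AMO1 100 nM replicate 2 the members scattered most, with an SD of 0.65 for their deviations from the other 2 replicates. These 3 libraries touch each AMO1 comparison below, and their part in the results was not tested beyond leaving them out.

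No ribosomal protein gene passed the test at either dose in either line. With limma on log2(FPKM + 1) and Benjamini-Hochberg adjustment over the 12204 genes tested, 0 of 77 members were called at an adjusted p under 0.05 in XG1 at 100 nM, where 6.61% of all genes were called, and 0 of 77 at 1000 nM, where 17.6% were. In AMO1 it was 0 of 77 at 100 nM, against 2.20% of all genes, and 0 of 77 at 1000 nM, against 17.1%. At an unadjusted p under 0.05 the members numbered 2 and 5 in XG1 and 0 and 1 in AMO1, in the same order of doses, against 20.5%, 31%, 15.1% and 29.9% of all genes. limma without its trend and robust options also called 0 in these 4 comparisons. Single libraries and the scaling bear on these counts. Without AMO1 DMSO replicate 3, 7 members were called lower in AMO1 at 1000 nM, where 24.9% of all genes were then called, and 1 (RPS12) at 100 nM, where 7.99% were. Without XG1 1000 nM replicate 3, 4 members (RPL23A, RPL28, RPL34 and RPL4) were called lower in XG1 at 1000 nM, beside 21.1% of all genes, and without XG1 DMSO replicate 3 only RPL23A was, beside 16.5%. Quantile normalization called 2 members higher in XG1 at 100 nM, beside 15.4% of all genes. The doses share the DMSO libraries of their line, so the 2 results of a line are not independent.

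A missed threshold does not show that a gene stayed level. The intervals bound the change only for FPKM as deposited and for the spread among libraries, not for another scaling. The 95% interval from limma lay within a 2-fold change in either direction for 74 of 77 members in XG1 at 100 nM and for 75 in the other 3 comparisons with DMSO. Of all genes tested 83.4% and 76.4% did so in XG1 and 87% and 76.5% in AMO1, at 100 and 1000 nM. The interval lay within 1.5-fold for 66 and 52 members in XG1 and for 65 and 67 in AMO1, at 100 and 1000 nM. RPL17 was outside the 2-fold bound in all 4, and RPL28 was in XG1 at 100 nM.

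The family's median change against DMSO was 0.03 in XG1 at 100 nM and -0.16 at 1000 nM on the log2 scale, beside -0.01 and -0.19 for all genes tested. In AMO1 it was 0.09 and -0.03, beside -0.09 and -0.18. The sign of the 1000 nM medians rests on how the libraries are scaled. With each library centred on the median of all genes tested they became 0.10 in XG1 and 0.26 in AMO1. Scaling to the spike-in RNAs left them at -0.15 and -0.04. The 100 nM medians kept their sign, at 0.04 in XG1 and 0.27 in AMO1 with that centring and 0.06 and 0.09 with spike-in scaling. Without AMO1 DMSO replicate 3 the AMO1 medians became -0.11 and -0.20. Centring each library on the family's own median, which asks whether single members moved against the rest, again called 0 members at either dose in either line. The members whose start carries the pyrimidine run were not tested as a group. At 1000 nM their median change was -0.16 in XG1 and -0.02 in AMO1 (42 genes), against -0.16 and -0.03 for the 20 matched members without it.

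**Figure D2:**
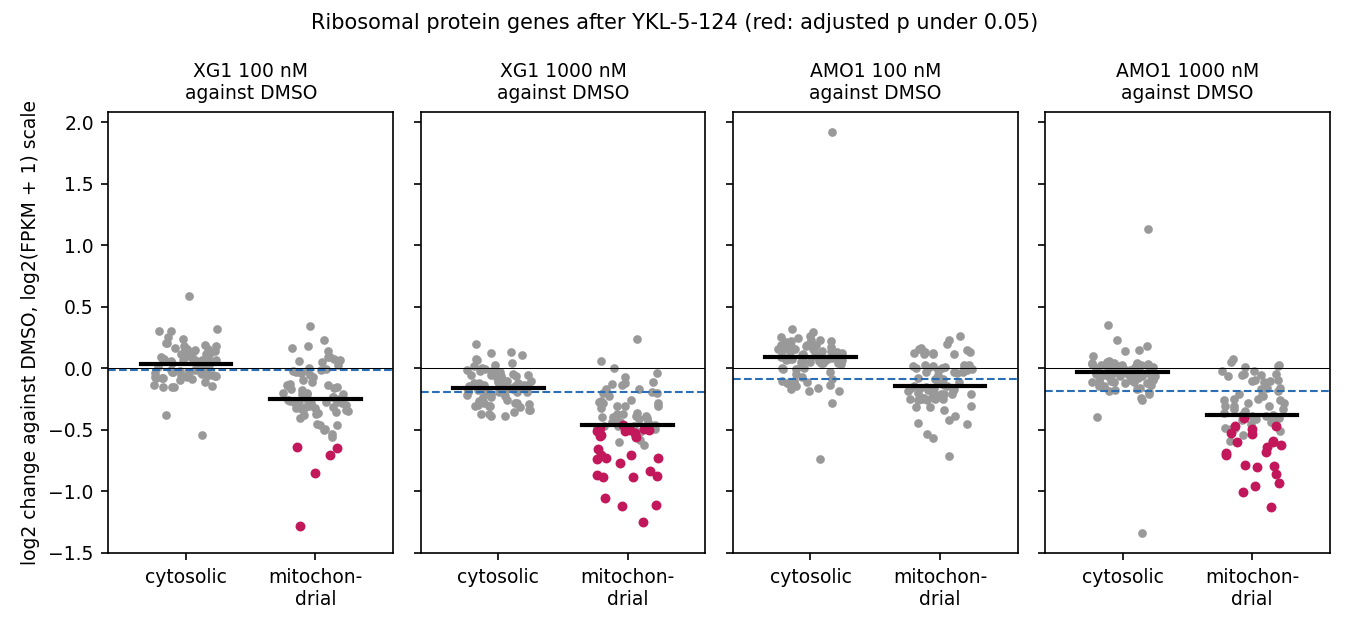
Log2 change against DMSO on the log2(FPKM + 1) scale of each of the 77 cytosolic and 77 mitochondrial ribosomal protein genes in 4 panels, 1 for each line and dose; red points passed an adjusted p of 0.05, thick bars are medians and the dashed line is the median of all genes tested. No cytosolic member is red in any panel, while 5, 27, 0 and 22 mitochondrial genes are, all of them lower.

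Members with well described roles gave the following values. RPS6, the small subunit protein phosphorylated by S6 kinase, was at 2236, 2278 and 2404 FPKM in XG1 with DMSO, 1967, 2222 and 2064 with 100 nM and 1642, 1893 and 2169 with 1000 nM. Its 1000 nM libraries were all below its DMSO libraries, but the log2 difference of -0.29 (95% interval -0.66 to 0.08) did not pass the limma test (adjusted p = 0.288). In AMO1, where it read 5248, 4658 and 3163 FPKM with DMSO and 3191, 4316 and 4539.6 with 1000 nM, the groups overlapped and the difference was -0.10 (-0.47 to 0.27).

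The stalk proteins RPLP0, RPLP1 and RPLP2 form the flexible arm of the large subunit that recruits elongation factors. RPLP0 read 3596, 3766 and 3774 FPKM in XG1 with DMSO and 3385, 3693 and 3439 with 1000 nM, a log2 difference of -0.08 (-0.46 to 0.30). In AMO1 it read 9711, 9458 and 4906 with DMSO, replicate 3 being far below the others, and 7435, 8259 and 7854 with 1000 nM. The AMO1 difference was 0.03 (-0.35 to 0.41), and without DMSO replicate 3 it was -0.29 and passed the test (adjusted p = 0.0257, limma). At 1000 nM RPLP1 and RPLP2 differed from DMSO by 0.01 and -0.03 in XG1 and by 0.05 and 0.01 in AMO1, with none of the groups apart.

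RPL5 and RPL11 bind the 5S ribosomal RNA, and together they can hold MDM2, the ligase that degrades p53. RPL5 was at 2200.1, 1927 and 2005 FPKM in XG1 with DMSO and 1656, 1777 and 1693 with 1000 nM. These groups did not overlap, and the log2 difference was -0.26 (-0.53 to 0.02) with an adjusted p of 0.190 in limma. In AMO1 at 1000 nM RPL5 differed from DMSO by -0.11 (-0.38 to 0.16). RPL11 differed by -0.14 (-0.48 to 0.20) in XG1 and 0.02 (-0.32 to 0.36) in AMO1 at that dose, and all its groups overlapped.

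RPS14 and RPS19 are the small subunit genes known from the 5q- syndrome and Diamond-Blackfan anaemia. RPS14 differed from DMSO at 1000 nM by 0.10 (-0.21 to 0.42) in XG1 and 0.04 (-0.28 to 0.36) in AMO1. For RPS19 these log2 differences were -0.05 (-0.55 to 0.44) and 0.23 (-0.27 to 0.72). Of the 20 members known from Diamond-Blackfan anaemia none was called at either dose in either line, and their median changes were 0.05 and -0.15 in XG1 and 0.11 and -0.03 in AMO1.

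RPS27A is made as a fusion of ubiquitin and a small subunit protein and so supplies both. It read 7115, 7365 and 8571 FPKM in XG1 with DMSO, 8039.7, 7576 and 7984 with 100 nM and 6164, 8019.8 and 6746 with 1000 nM. In AMO1 it read 40912, 35948 and 15947 with DMSO, 28884, 25678 and 32788 with 100 nM and 25953, 29127 and 31098 with 1000 nM. Within each line the groups overlapped, and the differences at 1000 nM were -0.14 (-0.64 to 0.35) in XG1 and 0.00 (-0.49 to 0.50) in AMO1. Without AMO1 DMSO replicate 3 the AMO1 difference was -0.42 and passed (adjusted p = 0.0183, limma). FAU, which encodes a ribosomal protein fused to a ubiquitin-like protein, was not called at either dose in either line.

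Among the remaining members followed by name, RPL3, which lies near the peptidyl transferase centre, differed from DMSO at 1000 nM by -0.22 in XG1 and 0.06 in AMO1. RPL10 differed by -0.12 and -0.18, and RPSA, also known as a laminin receptor, by -0.18 and 0.10. RPL38, needed for the translation of some Hox mRNAs in the mouse embryo, differed by -0.24 and -0.10, and RPL41, the smallest of the proteins, by -0.12 and -0.26. RPL22 differed by -0.19 and -0.19. None of these 12 log2 differences passed the test.

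The member closest to the threshold was RPL23A, a protein at the exit of the nascent chain from the large subunit, singled out here after its values were seen. In XG1 it read 1927, 1750.2 and 1370.3 FPKM with DMSO, 1992, 1882 and 2006 with 100 nM and 1297, 1115 and 1575 with 1000 nM. In AMO1 the values were 1429, 1552 and 1613 with DMSO, 1753, 1615 and 1738 with 100 nM and 1124, 1194 and 1164 with 1000 nM. The 3 libraries at 1000 nM were the lowest of the 9 in AMO1, whereas in XG1 they overlapped with DMSO but not with 100 nM. Against DMSO the 1000 nM difference was -0.40 (-0.69 to -0.11, adjusted p = 0.0553) in AMO1 and -0.34 (-0.63 to -0.05, adjusted p = 0.10) in XG1 by limma. Without XG1 DMSO replicate 3 the XG1 difference became -0.48 and passed (adjusted p = 0.0288), and without XG1 1000 nM replicate 3 it became -0.47 and passed (adjusted p = 0.0284).

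Counted without a test, 20 members (26%) had all 3 XG1 libraries at 1000 nM below all 3 with DMSO, near the 28% of all genes. No member had them above, beside 4.15% of all genes. At 100 nM in XG1 10 members (13%) did not overlap, 4 of them higher and 6 lower, beside 27.4% of all genes. In AMO1 3 members did not overlap at 100 nM, beside 18.8% of all genes, and 2 at 1000 nM, RPL23A and RPL23, beside 35.6%. Each of these shares was below that of all genes tested, a background not matched to the members' level.

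The doses were also compared with each other. At 1000 nM against 100 nM 0 of 77 members were called in XG1, beside 0.139% of all genes, and 0 of 77 in AMO1, beside 0.180%. The unadjusted counts were 12 members in XG1 (15.6%, beside 16.3% of all genes) and 7 in AMO1 (9.09%, beside 10.5%), all of them lower at 1000 nM. The median difference between doses was -0.18 in XG1 and -0.13 in AMO1, close to -0.18 and -0.11 for all genes tested. In XG1 14 members (18.2%) had all 1000 nM libraries below all 100 nM libraries, near the 16.5% of all genes that did. In AMO1 25 members (32.5%) did, beside 19.3% of all genes. For such a member the highest 1000 nM library lies below the lowest 100 nM library, and the cause of this higher share was not tested. RPL23A had the smallest adjusted p of the family in both lines, with a log2 difference of -0.57 (-0.87 to -0.28, adjusted p = 0.0814) in XG1 and -0.55 (-0.84 to -0.26, adjusted p = 0.135) in AMO1 by limma. In AMO1 it passed when limma was fitted to the AMO1 libraries compared alone (adjusted p = 0.0393).

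Whether the lines responded differently was tested as the difference of their responses. At 100 nM 0 of 77 members were called, beside 0.156% of all genes, and at 1000 nM 0 of 77, beside 0.680%. No member reached an unadjusted p under 0.05 in either, where 8.78% and 10.1% of all genes did. The 95% interval of the difference lay within 2-fold for 72 members at 100 nM and for 73 at 1000 nM, beside 69.1% and 69% of all genes. The medians over members, XG1 minus AMO1, were -0.06 and -0.12, beside 0.07 and 0.00 for all genes. Without AMO1 DMSO replicate 3 the medians over members became 0.11 and 0.05.

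RPL17, a large subunit protein near the exit of the nascent chain, is described because its replicates scattered widely, with a pooled SD of 0.83 on the log2 scale. RPL17 read 41.7, 290.2 and 117 FPKM in AMO1 with DMSO and 39.4, 65.96 and 32.2 with 1000 nM, and 195, 164 and 231 in XG1 with DMSO and 263, 85.03 and 236 with 1000 nM. The 3 AMO1 replicates with DMSO alone spanned most of the range of its AMO1 values.

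**Figure D3:**
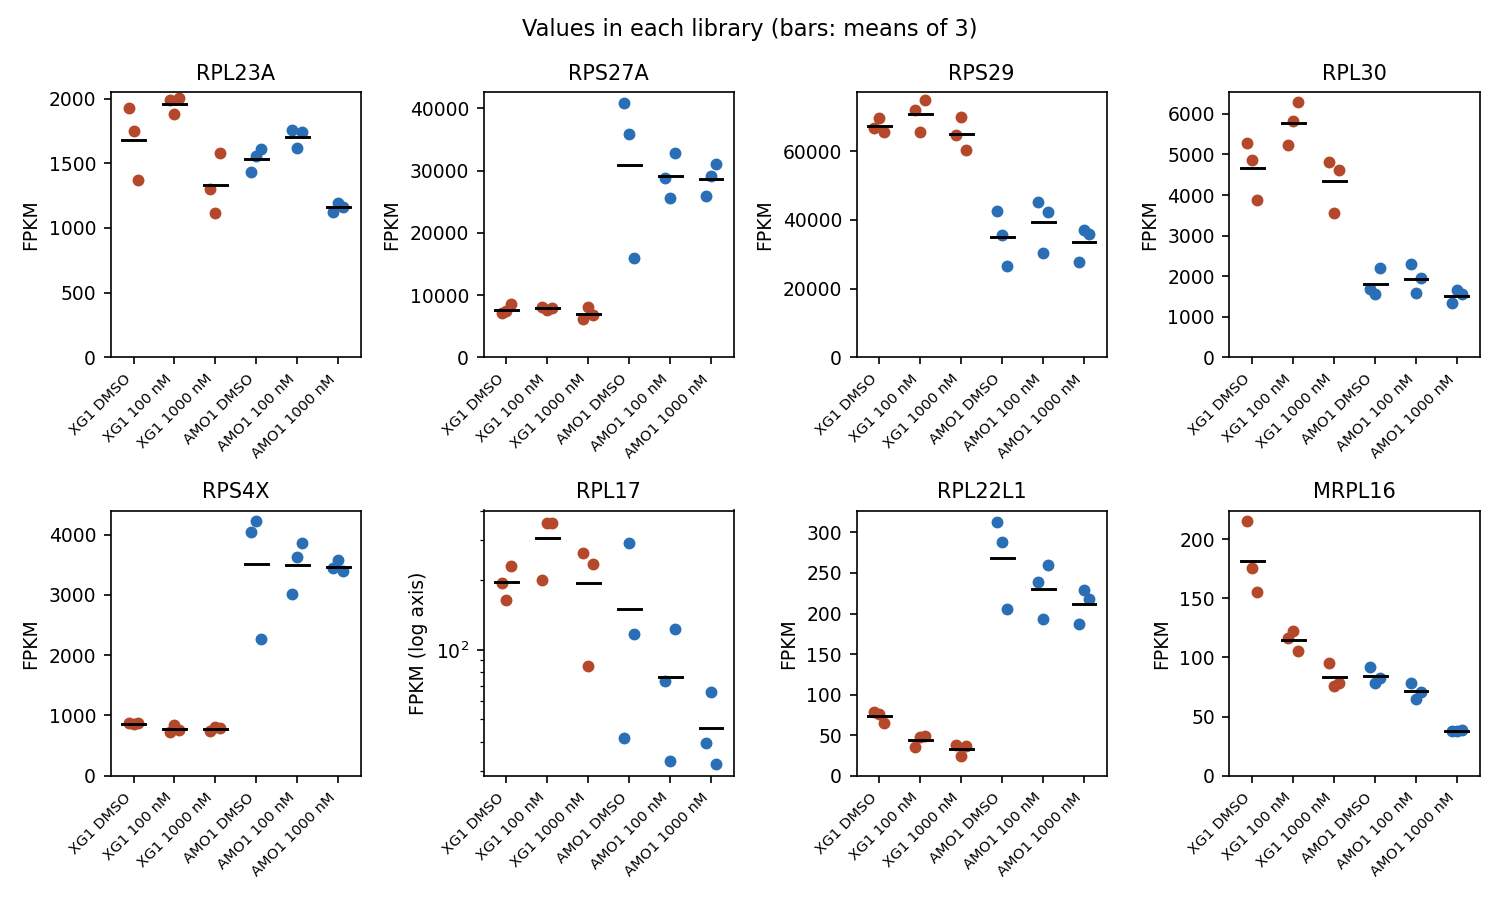
FPKM in each library of 6 cytosolic ribosomal protein genes, the paralog RPL22L1 and the mitochondrial MRPL16, with 3 points and a bar at the mean for each line and treatment (XG1 red, AMO1 blue; a log axis for RPL17). RPS4X, RPS27A, RPS29 and RPL30 separate the lines at every treatment, and MRPL16 and RPL22L1 show the levels of genes outside the family that fell.

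The lines themselves differed widely in the family. In DMSO 49 of 77 members (63.6%) passed the test between XG1 and AMO1, a share close to the 62.7% of all genes that were called. The direction was uneven: 40 members (51.9%) were lower in XG1, beside 34.4% of all genes, and 9 (11.7%) were higher, beside 28.3%. The median difference was -0.42 on the log2 scale, beside -0.08 for all genes tested, and 52 members had groups that did not overlap (67.5%, beside 65.1% of all genes). These directions hold for FPKM as deposited. FPKM summed over all genes was 771880 to 957143 in the XG1 libraries with DMSO and 1649170 to 1896260 in those of AMO1. As a share of that sum the family stood higher in XG1, at a mean of 33.9% against 25.4%. In bulk samples such as these, fewer cells of a type and less RNA per cell cannot be told apart. The erythroid and plasma cell markers differed between the same libraries by the summed levels given above, and 4 markers of stromal and epithelial cells summed to 23.0 to 58.1 FPKM in XG1 and 0.623 to 1.56 in AMO1. The XG1 sum came from the epithelial EPCAM (17.9 to 48.98 FPKM) and KRT19 (2.02 to 11.1 FPKM), while the stromal COL1A1 and DCN were under 1 FPKM in each XG1 library. The part of cell identity in these differences was not tested.

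The split between higher and lower members depended on the scaling. Quantile normalization gave 34 higher and 19 lower in XG1 with a median difference of 0.24, beside 67.2% of all genes called in either direction. Centring on the median of all genes tested gave 10 and 37, beside 67.3%. Scaling to the spike-in RNAs gave 9 and 39 with a median of -0.37, beside 62.4%. Leaving out AMO1 DMSO replicate 3, the low library, gave 6 and 51 with a median of -0.60, beside 63.5%. Of the 49 calls, 23 (4 higher and 19 lower) held under all 18 alternatives tried. The spike-in RNAs, which were not part of either line, differed between the lines with an SD of 0.53 on the log2 scale and by more than 2-fold for 3 of 44, so single log2 differences of that size between the lines also arose for RNAs added from outside.

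RPS4X, an X-linked gene of the small subunit, had the largest difference. It read 873, 851 and 868 FPKM in XG1 with DMSO and 4044, 4224 and 2263 in AMO1, a log2 difference of -1.97 (SE 0.17, adjusted p = 5.21e-09, limma). Every XG1 value was below every AMO1 value, also the low AMO1 replicate 3. RPS28 read 15311, 13887 and 13084 against 62150.4, 61509 and 39007, a difference of -1.91. RPS27A differed by -1.90 from the values given above. All 3 were also lower in each of the 9 XG1 libraries than in each of the 9 AMO1 libraries over all treatments.

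RPS14 at 8092 ± 363 against 27815 ± 6879 FPKM and RPL26 at 1759 ± 127 against 6004 ± 1294 FPKM (mean ± SD, n = 3) were lower in XG1 by about the same log2 difference, -1.75 and -1.75. RPS19 differed by -1.39 and RPS6 by -0.89. Of the stalk, RPLP0 (-1.05) and RPLP2 (-1.43) were lower in XG1, while RPLP1 differed by -0.23 (-0.53 to 0.07) and was not called. The 5S RNA partners RPL5 (-0.70) and RPL11 (-0.43) and the core protein RPL3 (-0.53) were also called lower. The RPL11 difference was 0.19 after quantile normalization and 0.03 against the family's median, and that of RPL3 was 0.15 after quantile normalization, neither called. The calls of RPL11 and RPL3 were made in only 9 and 11 of the 18 alternatives, and those of RPL5 and RPS26 in 16 and 15. That of RPS28 was lost under quantile normalization, where its difference was -0.30. Among the lowest members by level, RPL21 (-1.58) and RPS26 (-0.69) were lower in XG1. RPL10, RPL22 and RPSA were not called, with log2 differences of -0.11, -0.31 and 0.17.

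Members higher in XG1 were led by RPL30, a large subunit protein, which read 5279, 4868 and 3877 FPKM in XG1 and 1684, 1568 and 2193 in AMO1 with DMSO. The difference was 1.37 (SE 0.17, adjusted p = 7.04e-07, limma). RPS29, the member with the highest mean level in XG1, read 66857, 69781 and 65559 against 42740.0, 35575 and 26534, a difference of 0.97. RPL30, RPS29 and RPS18 were the 3 members higher in every XG1 library than in every AMO1 library over all treatments. Another 32 members were lower in every one. The share of all genes that did so was not counted, so these counts do not set the family apart. RPL41 was at 402 ± 115 against 193 ± 61.9 FPKM (1.06), RPL29 at 467 ± 66.7 against 283 ± 36.3 (0.72), and RPS2, near the mRNA entry site, at 992 ± 86.02 against 724 ± 176 (0.48). RPL38 was higher by 0.40. The calls of RPS2, RPL38 and RPS18 were made in 12, 16 and 15 of the 18 alternatives. Without AMO1 DMSO replicate 3 the RPS2 difference was 0.27 and did not pass (adjusted p = 0.125, limma).

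**Figure D4:**
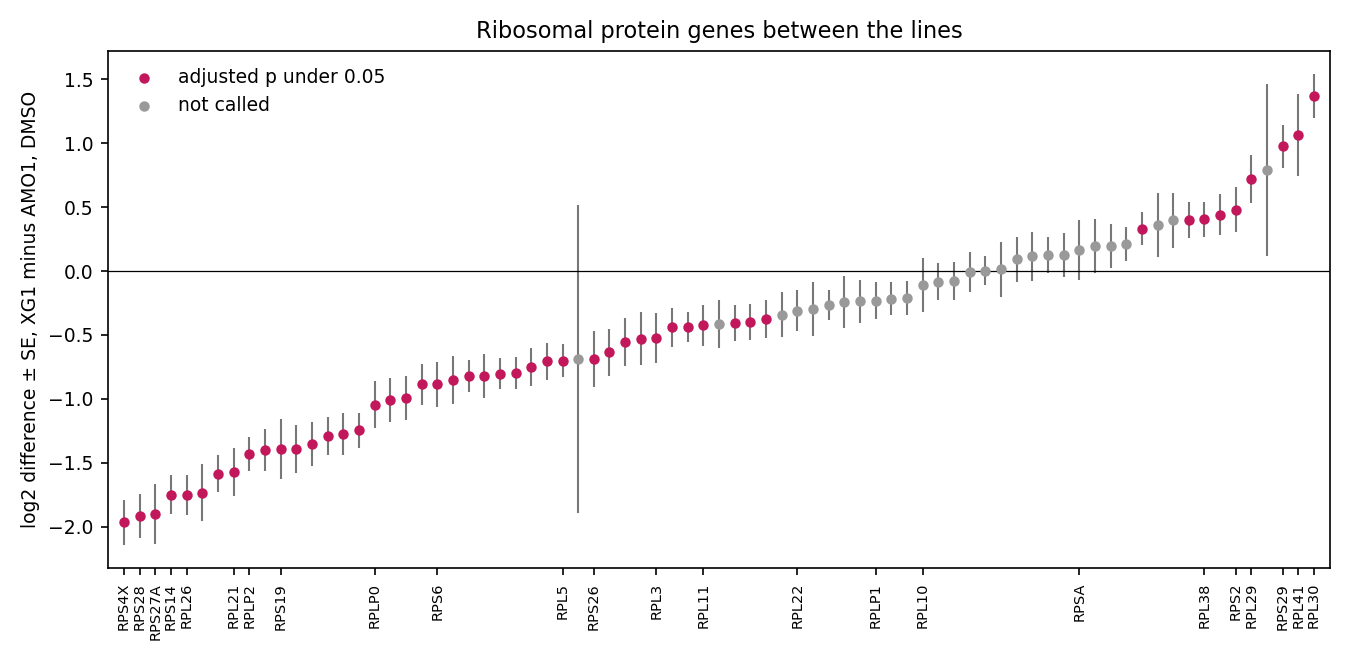
Log2 difference XG1 minus AMO1 in DMSO on the log2(FPKM + 1) scale for each of the 77 members in order of size, as a point with its limma SE as a bar, red where the adjusted p was under 0.05. The points run from RPS4X at -1.97 to RPL30 at 1.37, and the members whose difference between the lines is given here are labelled.

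By role, the small subunit had 3 of 31 members higher and 18 lower in XG1 with a median log2 difference of -0.69, and the large subunit 6 and 22 of 46 with a median of -0.36. Of all genes tested 28.3% were called higher and 34.4% lower. The Diamond-Blackfan genes had 2 of 20 higher and 14 lower (median -0.69), and the 28 members whose introns host small nucleolar RNAs had 2 higher and 10 lower (median -0.24). The 42 members with the pyrimidine run had a median of -0.54 and the 20 without it one of -0.42. The median over all 77 was -0.38 between the lines at 100 nM and -0.58 at 1000 nM. Measured against the family's own median, 53 of 77 members differed between the lines, 25 higher and 28 lower. With that centring 68.2% of all genes were called, a share close to that of the members. Between transcript length and the line difference the Spearman rho over the 77 genes was -0.01.

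Other genes of the ribosome were also measured under treatment. The 77 mitochondrial ribosomal protein genes (MRPL and MRPS), which serve the ribosome inside mitochondria, were described in the same way. In XG1 at 1000 nM 27 of them (35.1%) fell, beside 17.6% of all genes called in either direction, and in AMO1 at 1000 nM 22 (28.6%) fell, beside 17.1%. At 100 nM 5 (6.49%) were called lower in XG1, the share of all genes being 6.61%, and 0 in AMO1, beside 2.20%. None was called higher. The median changes of the 77 were -0.25 and -0.47 in XG1 and -0.15 and -0.38 in AMO1, beside -0.01, -0.19, -0.09 and -0.18 for all genes tested. MRPL16 read 91.7, 78.6 and 82.2 FPKM in AMO1 with DMSO, 78.5, 64.7 and 71.1 with 100 nM and 37.5, 37.6 and 38.4 with 1000 nM. At 1000 nM it fell by 1.13 on the log2 scale in AMO1 and by 1.11 in XG1, from 182 ± 30.6 to 83.4 ± 10.5 FPKM. MRPL27 fell at 1000 nM in both lines (-1.25 and -1.01), as did MRPL39 (-1.12 and -0.96). Whether the mitochondrial and cytosolic sets differ from each other was not tested. The number of mitochondrial genes called lower at 1000 nM ranged with the setting from 12 to 33 in XG1 and from 4 to 43 in AMO1. The fewest came with each library centred on the median of all genes tested. That gave 12 lower and 1 higher in XG1, beside 15.9% of all genes called, and 4 lower in AMO1, beside 15%. Quantile normalization gave 15 lower and 2 higher in XG1, beside 19.5%, and 10 lower in AMO1, beside 15.3%. With either scaling the share called was near or below that of all genes. Without AMO1 DMSO replicate 3 the count was 43 lower in AMO1, beside 24.9% of all genes. Without AMO1 DMSO replicate 1 it was 8, beside 10.3%. Without XG1 DMSO replicate 1 or XG1 1000 nM replicate 2 it was 13 in XG1, beside 9.11% and 9.78%. The median over these genes stayed below 0 at 1000 nM in both lines under all the settings tried.

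Of 6 paralogs of ribosomal proteins that were tested, 3 fell in XG1 at 1000 nM. RPL22L1, the paralog of RPL22, read 79.02, 76.03 and 65.1 FPKM with DMSO, 35.3, 47.9 and 49.2 with 100 nM and 37.8, 24.98 and 36.2 with 1000 nM, a change of -0.73 and -1.15 (adjusted p = 0.0226 and 4.18e-04, limma). In XG1 the treated libraries did not overlap with DMSO, whereas RPL22 itself was not called. RPL7L1 (-1.18) and RPL39L (-0.70) also fell in XG1 at 1000 nM. In AMO1 1 paralog was called, RPL26L1 at 1000 nM (-0.47). Between the lines in DMSO 5 paralogs were called lower in XG1, beside 34.4% of all genes, among them RPL22L1 with a log2 difference of -1.84. The other one tested, RPL39L, was called higher (0.75), beside 28.3% of all genes. Of the 6 paralogs 16.7% and 50% were called in XG1 at 100 and 1000 nM, beside 6.61% and 17.6% of all genes, and 0% and 16.7% in AMO1, beside 2.20% and 17.1%.

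Among 22 other genes known for TOP mRNAs, such as elongation factors, none was called at either dose in either line. Of all genes 6.61% and 17.6% were called in XG1 and 2.20% and 17.1% in AMO1, at 100 and 1000 nM. Their median changes were -0.01 and -0.20 in XG1 and 0.06 and -0.12 in AMO1. Between the lines 6 of the 22 were higher in XG1, beside 28.3% of all genes, and 11 lower, beside 34.4%. EEF1D (-2.09), PFDN5 (-1.88) and EEF1G (-1.68) were the furthest below and EEF1A1 (1.01) above. FAU was higher in XG1 (0.72).

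Of 14 genes of mTOR and LARP1 control, 2 fell in XG1 at 100 nM (14.3%, beside 6.61% of all genes) and 1 at 1000 nM (7.14%, beside 17.6%), and 0 and 3 fell in AMO1 (3 being 21.4%, beside 17.1%). These small counts do not set the list apart from all genes. EIF4E, the cap-binding protein that mTOR signalling releases, fell in XG1 at both doses (-0.89 and -1.21) and in AMO1 at 1000 nM (-1.27, from 21.7 ± 1.81 to 8.45 ± 0.906 FPKM). Its inhibitor EIF4EBP1 fell in XG1 at 100 nM (-0.57) and in AMO1 at 1000 nM (-0.40), and RHEB, the activator of mTOR, in AMO1 at 1000 nM (-0.72). Of 18 chaperones and import factors of ribosomal proteins, 2 and 7 fell in XG1 (11.1% and 38.9%, beside 6.61% and 17.6% of all genes) and 1 and 6 in AMO1 (5.56% and 33.3%, beside 2.20% and 17.1%), with none higher. Over the alternatives the counts ran from 0 to 5 and 3 to 8 in XG1 and from 0 to 6 and 4 to 9 in AMO1. RPF2, which helps to place the 5S particle that holds RPL5 and RPL11, fell at both doses in both lines, by 0.74 and 0.93 in XG1 and by 0.79 and 1.34 in AMO1. PDCD2L fell at 1000 nM in both lines (-0.91 and -0.98). Of 8 genes of ribosome splitting and quality control 1 was called, ABCE1 in XG1 at 1000 nM (-0.64), where 17.6% of all genes were called.

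Of 19 ribosomal protein pseudogenes that were tested, 2 were called lower in XG1 at 1000 nM (RPL13P5 and RPL23AP64), beside 17.6% of all genes called. In AMO1 at 1000 nM 1 was called lower (RPL13AP6) and 1 higher (RPL23AP32), beside 17.1%. All of these pseudogenes were at means under 5 FPKM. For reference, MYC, a transcription factor that drives ribosome production, fell at 1000 nM in XG1 (-1.84 on the log2 scale) and in AMO1 (-1.59), and at 100 nM in XG1 (-1.06). In AMO1 at 100 nM MYC was at 22.4 ± 2.70 FPKM against 41.6 ± 18.01 with DMSO and was not called (adjusted p = 0.172, limma). CDK7 itself fell at 1000 nM in XG1 (-0.79) and in AMO1 (-0.63). Of the 39 calls of named genes outside the family in comparisons with DMSO, 13 held under all alternatives tried: EIF4E in its 3 comparisons, MRPL16, RPF2 and MYC at 1000 nM in both lines, MRPL27 in XG1 at both doses, and RPL22L1 and IPO7 in XG1 at 1000 nM. The other 26 lost the call under at least 1 alternative, each of them with 1 or another library left out. Those of CDK7, EIF4EBP1 and MRPL39 in AMO1 at 1000 nM were lost under 11, 11 and 12 of 18 alternatives.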

How the data were processed

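Total RNA from XG1 and AMO1 cells was sequenced as 18 libraries of transcript 3′ ends, per the labels' protocols. The submitters' processing notes name HISAT2, Cuffnorm and hg19 without versions or roles. The deposited tables hold 1 FPKM value per gene symbol, normalized by the authors, and 92 spike-in rows; they hold no counts, so no count test was run and the depth per library is unknown.

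Members and gene lists were chosen with earlier results of these data known. log2(FPKM + 1) was fitted with limma 3.58.1 (R 4.3.3, trend and robust options, 1 mean per group, all 18 libraries, two-sided) over the 12204 genes whose mean reached 1 FPKM in any group. p-values were adjusted by Benjamini-Hochberg over all these genes in each of 9 comparisons, and genes with an adjusted p under 0.05 were called. Fold changes are on the log2(FPKM + 1) scale, which understates changes of low genes. The code was checked on simulated data. Genes named are the called members with the largest differences and no overlap between groups (up to 10 a direction against DMSO and 5 otherwise), 15 members picked for their roles, the 3 highest and 3 lowest members of each line, up to 3 called genes a direction of each other list, and CDK7 and MYC. RPL23A, RPL23, RPL17, RPL28, RPS18 and members called under other settings only were named after their values were seen. Start windows are from RefSeq (GRCh38.p14), transcript lengths from GENCODE 29 and only for rank order. Alternatives tried were other pseudocounts, filters and scalings, the replicate block, other variance models and leaving out libraries. Some members enter the counts and medians but are not reported by name here.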

Additional observations from a re-analysis of the deposited data

How the results depend on the processing

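In the 8 comparisons that involve treatment, 145 of 153 fits under other settings called 0 members. Quantile normalization called 2 in XG1 at 100 nM, RPS18 (0.46, adjusted p = 0.0446, limma) and RPS28 (0.48, adjusted p = 0.0254), both higher, where it called 15.4% of all genes. Fitting only the groups compared called 1 in AMO1 at 1000 against 100 nM (RPL23A). Leaving out single libraries gave 0 to 4 members in XG1 at 1000 nM (without XG1 DMSO replicate 3 it was RPL23A, and without XG1 1000 nM replicate 3 RPL23A, RPL28, RPL34 and RPL4), 0 to 1 in AMO1 at 100 nM (RPS12, without AMO1 DMSO replicate 3), 0 to 7 in AMO1 at 1000 nM and 0 to 1 in XG1 at 1000 against 100 nM (RPL23A, without XG1 1000 nM replicate 3). Among the 7 were RPL15, RPL7, RPLP0, RPS13, RPS27A and RPS9, and all 7 were lower without AMO1 DMSO replicate 3, where 24.9% of all genes were called. Leaving out the 3 AMO1 libraries that stand apart together, an alternative chosen after seeing the data, called 1 at 1000 nM, RPL15. The cause of these shifts was not tested. Between the lines the count was 41 to 57 with a library left out, beside 57.1% to 63.5% of all genes. Over all settings it was 37 to 60, beside 29.7% to 68.4%, with 34 higher and 19 lower after quantile normalization. There RPL11 turned to 0.19, RPL3 to 0.15 and RPL37A to 0.27, and RPL11 was at 0.030 against the family's median, none of them called. Signs of members that were never called are not counted as reversals. The replicate block called 0 members in the 8 comparisons and 49 between the lines, as without it. At 1000 nM it called 17 and 13 mitochondrial ribosomal protein genes lower in XG1 and AMO1, against 27 and 22 without it. Of all genes it called 12.4% and 11.9% there. The labels give the libraries of a block only a number in common. Correlations of same-numbered libraries within a line were -0.12 to 0.09, none of 18 over 0.1. With 3 libraries a group these cannot show whether such libraries shared a preparation.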
